A study of Rattus norvegicus with 30 samples.

Results

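The genes described here are the rat quinone reductases Nqo1 and Nqo2, the cytosolic glutathione transferases Gstp1, Gsta1, Gsta4, Gstm1, Gstm5 and Gstt1, and the membrane-bound microsomal transferases Mgst1 and Mgst3. They were found by symbol in the deposited tables, where each of the 10 symbols named 1 gene among 21993. RNA was sequenced from wild-type hippocampal neurons of Wistar rat embryos (embryonic day 18) after 7 days in culture, in 10 groups of 3 libraries each. The cultures had received dimethyl fumarate (DMF) or monomethyl fumarate (MMF), both at 30 µM, cannabidiol (CBD) at 6 µM, or vehicle alone, for 4 h or 24 h. Vehicle cultures had 0.2% of the solvent, which was ethanol (EtOH) where CBD was tested and dimethyl sulfoxide (DMSO) where DMF or MMF was. DMF carries a methyl ester at both ends of fumaric acid and MMF at one end only, and esterases turn DMF into MMF. The study states that each experiment was repeated 3 times, but not whether libraries came from separate cultures, so p-values measure only the spread between these libraries, which may be technical.

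Glutathione transferases join reduced glutathione to electrophilic compounds, which detoxifies them and spends glutathione, whereas the quinone reductases turn quinones into hydroquinones without a semiquinone step. Nqo1 and several transferases are textbook targets of the transcription factor Nrf2, which the sensor protein Keap1 holds at a low level until electrophiles such as fumarates modify the cysteines of Keap1. Nrf2 binds with small Maf proteins to the antioxidant response element, whose core is usually written TGACNNNGC. In brain, these enzymes are known from glia as well as from neurons.

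The promoters of 9 of the 10 genes were present in the RefSeq table of the rat assembly GRCr8, as windows from 250 bases before to 50 bases after the start. Both strands were searched for TGACNNNGC and for TGACTCAGC, a form of it that also holds an AP-1 site, so that every match to the second is also one to the first. The first was found in 12.1% of all 33469 windows and the second in 0.415%. Of the 9 genes, Gstp1, Gstm5 and Gsta1 had a match, while the windows of Nqo1, Nqo2, Gsta4, Gstm1, Mgst1 and Mgst3 had none. A match is a description of letters and not a binding site, and a window with no match shows only that these letters do not occur within it. The upstream sequences of Gstp1 (chr1:210769706-210769955, minus strand), Gstm5 (chr2:198219519-198219768, plus strand) and Nqo1 (chr19:52220268-52220517, minus strand) are printed because they held a match to TGACTCAGC, matches to TGACNNNGC at 2 places and no match, in that order. For Gsta1 (chr9:31216486-31216510, minus strand) only the stretch around its match after the start is printed. Each sequence runs 5′ to 3′ on the strand of the gene, and capitals mark the matches.
Gstp1: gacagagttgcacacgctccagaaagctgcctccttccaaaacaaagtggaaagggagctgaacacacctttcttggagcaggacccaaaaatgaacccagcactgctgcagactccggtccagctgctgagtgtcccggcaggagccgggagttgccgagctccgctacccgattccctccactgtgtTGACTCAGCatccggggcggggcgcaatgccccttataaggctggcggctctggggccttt
Gstm5: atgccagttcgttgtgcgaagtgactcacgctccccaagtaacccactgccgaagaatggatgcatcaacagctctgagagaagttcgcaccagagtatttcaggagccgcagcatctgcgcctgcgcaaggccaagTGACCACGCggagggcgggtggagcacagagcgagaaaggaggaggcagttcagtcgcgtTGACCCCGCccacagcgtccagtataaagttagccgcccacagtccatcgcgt
Nqo1: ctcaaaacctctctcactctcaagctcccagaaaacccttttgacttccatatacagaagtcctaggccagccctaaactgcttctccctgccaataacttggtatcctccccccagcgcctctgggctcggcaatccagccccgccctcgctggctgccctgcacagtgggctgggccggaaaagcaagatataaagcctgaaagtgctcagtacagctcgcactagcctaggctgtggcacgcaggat
Gsta1: ctcaggcaTGACTTTGCatttttct
The match of Gstp1 began 61 bases before the start, those of Gstm5 began 113 and 53 bases before it, and that of Gsta1 lay 31 bases after it.

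Between 15108132 and 25367834 reads per library lay on genes. The summed level of 8 neuronal markers lay between 3251 and 4472 CPM, which are counts scaled to a common library total, and that of 9 astrocyte markers between 2169 and 5595 CPM. The sums were 466 to 1093 CPM for the oligodendrocyte lineage, 22.5 to 99.4 CPM for fibroblasts, 8.64 to 25.5 CPM for endothelial cells and pericytes, and 1.34 to 12.9 CPM for microglia. RNA of neurons and astrocytes was thus present together, and none of the groups had a marker at 0 in all of its libraries among those found in the tables, which lacked 1 of 4 markers of endothelial cells and pericytes. Over all genes, CBD replicate 3 at 24 h stood apart from its group, with a chi-square per gene of 51.5 against replicate 1 and 32.3 against replicate 2, the highest of the 30 pairs of libraries within groups. In such bulk samples, fewer cells of one type and less RNA per cell cannot be told apart.

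Normalized read counts were compared with limma, and genes with an adjusted p-value under 0.05 are called changed. Nqo2 had 0 to 14 reads per library and was removed as a low gene, so 9 of the 10 genes were tested in each comparison. Libraries of different groups with the same replicate number deviated together, and values from the test with the replicate number as a block are given where they change a call. At 24 h, DMF raised 4 of the 9 genes tested (Nqo1, Gstp1, Gsta1 and Mgst1) and lowered none, where 3.97% of all genes were called in either direction. MMF raised 1 (Gstp1), which was the only gene called among 14137, or 0.00707%. For CBD at 24 h, 0 of 9 were called (0.114% of all genes). At 4 h, 0 of the 9 genes were called for DMF (3.41% of all genes), MMF (0%) or CBD (0.00705%). The number of the 9 genes with an unadjusted p under 0.05 was 1, 0 and 0 in these comparisons at 4 h, and 3 for CBD at 24 h. Among all genes tested it was 2852 of 14208, 36 of 14032 and 563 of 14193 at 4 h. For CBD at 24 h it was 1384 of 14079. DESeq2 and edgeR on the recovered reads called 0 of 9 for each drug at 4 h, and for CBD at 24 h DESeq2 called Gstp1 and edgeR 0. For MMF at 24 h DESeq2 called Nqo1, Gstp1 and Gsta1, and edgeR called Gstp1. The shares of all genes called by DESeq2 and edgeR are not given here.

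With the replicate block, the calls changed for the fumarates. DMF at 4 h then raised Nqo1, Gstp1 and Gsta1, 3 of 9, where 23.0% of all genes were called. That share of the 9 was not far above the share of all genes. MMF at 24 h raised 6 of 9 (Nqo1, Gstp1, Gsta1, Gstm1, Gstm5 and Mgst1), where 1.38% of all genes were called. DMF at 24 h raised the same 4 genes as without the block, beside 12.9% of all genes. MMF at 4 h changed 0 of 9 (0% of all genes), CBD at 4 h 0 of 9 (2.33%) and CBD at 24 h 0 of 9 (0.504%). The median log2 fold change of the 9 genes was 0.24 for DMF, 0.35 for MMF and 0.09 for CBD at 24 h, beside medians over all genes tested of -0.01, 0.00 and 0.00.

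**Figure D1:**
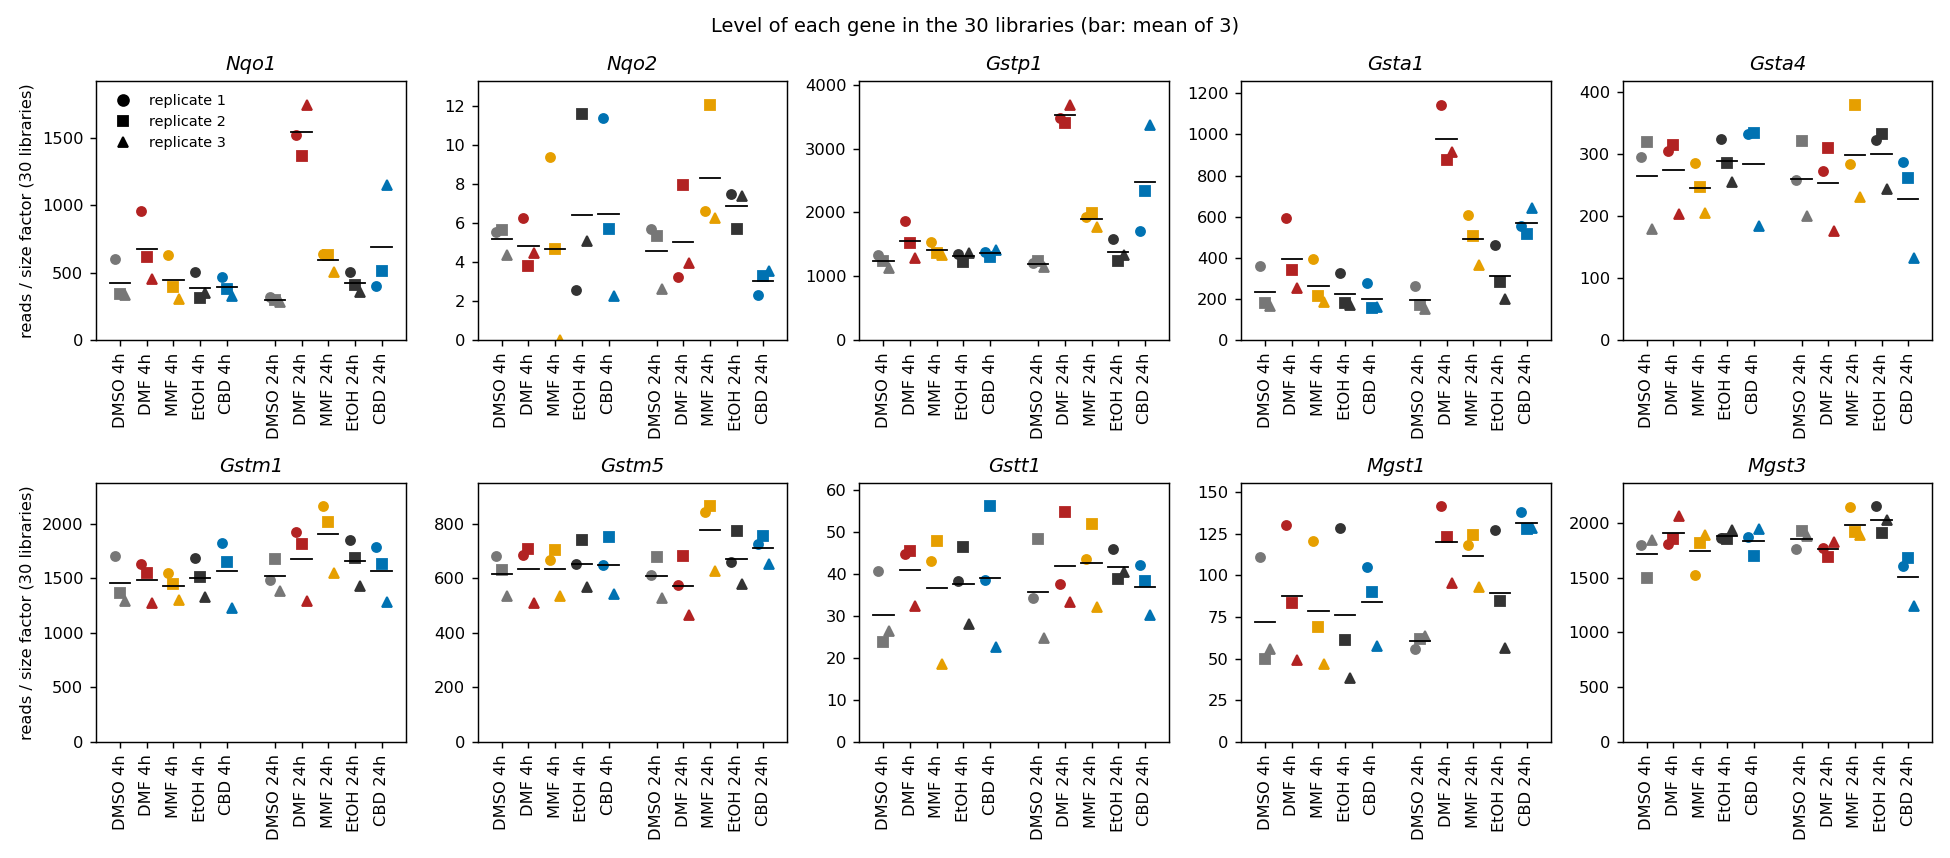
Level of each of the 10 genes in the 30 libraries, as reads divided by size factors over all 30 libraries (y axis, starting at 0), by group (x axis, colour) and replicate number (marker), with a bar at the mean of 3 libraries. Nqo1, Gstp1 and Gsta1 stand highest with DMF at 24 h, Gstm1 ranges from 1228 to 2159 and Mgst3 from 1238 to 2152, and Nqo2 stays at or under 12.1.

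Nqo1 (chromosome 19, 35295573 to 35310557 in mRatBN7.2) reduces quinones with NADH or NADPH. At 24 h, its normalized counts were 1456, 1307 and 1668 with DMF in replicates 1, 2 and 3, and 308, 284 and 268 with DMSO. Every DMF library stood far above every DMSO library. Nqo1 rose 5.12-fold, with a log2 fold change of 2.35 ± 0.10 (± SE here and below; limma, adjusted p = 2.19e-05). With MMF it was 641, 638 and 509, against 324, 298 and 282 with DMSO on the scale of that table. These groups did not overlap either, with a log2 fold change of 0.97 ± 0.11 (limma, adjusted p = 0.0695, and 3.3e-06 with the replicate block). Without the block, DESeq2 called this rise and edgeR did not. The 2 comparisons share the DMSO libraries.

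At 4 h, Nqo1 stood at 983, 639 and 466 with DMF and at 620.2, 353 and 347 with DMSO. The DMSO library of replicate 1 was therefore above the DMF library of replicate 3, and the groups overlapped. Within each replicate number, however, the DMF library was higher, by 0.66, 0.85 and 0.42 on the log2 scale. The log2 fold change was 0.65 ± 0.30 (limma, adjusted p = 0.274), and its standard error fell to 0.09 with the replicate block (adjusted p = 0.000126). MMF at 4 h gave 597, 371 and 289.9 against 567, 322 and 317, with a log2 fold change of 0.05 (95% confidence interval -0.63 to 0.73).

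In the CBD groups, Nqo1 at 24 h was 392, 507 and 1124 with CBD and 497, 398 and 347 with EtOH. Replicate 3 alone stood far above the EtOH libraries, and replicate 1 was below its own EtOH library. Its log2 fold change was 0.57 ± 0.35 (limma, adjusted p = 0.624), and it was 0.12 without CBD replicate 3. At 4 h the CBD libraries had 478, 389 and 331 and the EtOH libraries 511, 319.8 and 353.

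Across the 10 groups, on the scale of the 30 libraries, Nqo1 was highest with DMF at 24 h (1546 ± 190, mean ± SD, n = 3), apart from every other group. CBD at 24 h (688 ± 404), DMF at 4 h (675 ± 257) and MMF at 24 h (594 ± 74.4) followed with overlapping ranges. DMSO at 24 h was the lowest (300.3 ± 20.6). Nqo2 (chromosome 17, 30909187 to 30938320), a related reductase that prefers other hydride donors than NADPH, had 0 to 14 reads per library with a highest level of 12.1 on the same scale. With MMF at 24 h it had 6.66, 12.1 and 6.27 normalized counts and with DMSO 5.73, 5.38 and 2.61, too few reads for the test.

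Gstp1 (chromosome 1, 201321672 to 201340226), the transferase of the pi class, is the gene whose promoter held TGACTCAGC. At 24 h it had 3324, 3243 and 3526 normalized counts with DMF, against 1149.6, 1191 and 1094 with DMSO. Its spread within each group was small, and it had the smallest p of all genes tested in this comparison. Gstp1 rose 2.94-fold, a log2 fold change of 1.55 ± 0.06 (limma, adjusted p = 2.19e-05). With MMF it had 1941.5, 2009 and 1773, against 1209.5, 1251 and 1149. Here too the lowest MMF library lay above the highest DMSO library, and the 3 ratios within replicate numbers were 0.68, 0.68 and 0.63 on the log2 scale. Its rise of 0.66 ± 0.06 on the log2 scale passed the threshold narrowly (limma, adjusted p = 0.0454, and 1.09e-06 with the replicate block). Without any 1 of 5 of the 6 libraries it did not pass, with a highest adjusted p of 0.671, and without the remaining one, MMF replicate 3, Gstp1, Nqo1 and Gsta1 all passed (limma, adjusted p = 0.00634, 0.00634 and 0.0484).

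At 4 h, Gstp1 had 1927, 1575 and 1323 with DMF and 1376, 1285 and 1179 with DMSO. All 3 ratios were above 0 on the log2 scale (0.49, 0.29 and 0.17), while the groups overlapped. The rise of 0.32 ± 0.13 was called with the replicate block only (limma, adjusted p = 0.234 without and 0.0027 with it). MMF at 4 h gave 1451, 1296 and 1269 against 1257, 1173 and 1076, so that each MMF library was above each DMSO library, by 0.20 ± 0.09 on the log2 scale with an unadjusted p of 0.0644 (limma).

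With CBD at 24 h, Gstp1 was 1675, 2299 and 3297 against 1551, 1209 and 1304 with EtOH. The groups did not overlap, but the 3 ratios ran from 0.11 in replicate 1 through 0.93 in replicate 2 to 1.34 in replicate 3 on the log2 scale. A difference of 0.79 ± 0.22 was not called (limma, adjusted p = 0.379), without CBD replicate 3 it was 0.54, and without CBD replicate 1 it was 1.03 and called (adjusted p = 0.0442). At 4 h the log2 fold change with CBD was 0.05 (95% confidence interval -0.10 to 0.21). On the scale of the 30 libraries, Gstp1 stood at 3521 ± 152 (SD, n = 3) with DMF at 24 h, 2474 ± 839 with CBD at 24 h and 1901 ± 119 with MMF at 24 h. The other 7 groups had means of 1198 to 1559.

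Gsta1 (chromosome 9, 23703477 to 23720121) belongs to the alpha class, which also reduces lipid hydroperoxides. At 24 h it had 1094, 839 and 875 normalized counts with DMF and 253, 163 and 147 with DMSO, and with MMF it had 610.4, 509 and 366 against 266, 171 and 154. Neither fumarate group overlapped with DMSO. DMF raised it 5.08-fold, a log2 fold change of 2.34 ± 0.19 (limma, adjusted p = 0.000623). For MMF the difference was 1.34 ± 0.23 (limma, adjusted p = 0.714, and 1.09e-06 with the replicate block). Without the block, DESeq2 called this difference and edgeR did not. The DMSO library of replicate 1 was the highest of its group, and the 3 ratios of MMF within replicate numbers were 1.20, 1.57 and 1.24 on the log2 scale.

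After 4 h with DMF, Gsta1 was 610.2, 352 and 263, and 372, 186 and 171 with DMSO. Replicate 1 was the highest in both groups, and the ratios of 0.71, 0.92 and 0.62 on the log2 scale lay above 0. The log2 fold change was 0.75 ± 0.36 (limma, adjusted p = 0.297, and 0.000123 with the block). With CBD for 24 h it was 543, 508 and 627 against 453, 275 and 195 with EtOH. These groups did not overlap, and the log2 fold change of 0.94 ± 0.27 was not called (limma, adjusted p = 0.379), with ratios of 0.26, 0.88 and 1.68, and it was 0.86 without CBD replicate 3. At 4 h with CBD all 3 ratios were slightly below 0 (-0.24, -0.18 and -0.09), with a mean of -0.17.

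Gsta4 (chromosome 8), an alpha class transferase known for conjugating the reactive aldehydes of lipid peroxidation, was not called in any comparison, with or without the block. At 24 h it had 260.3, 296 and 168 normalized counts with DMF against 246, 306 and 191 with DMSO, a log2 fold change of -0.05 (95% confidence interval -0.58 to 0.47). The values of the groups intermingled. With CBD at 24 h it had 282, 256 and 129.7 against 317, 326 and 239, a log2 fold change of -0.46 ± 0.29 (limma, adjusted p = 0.624).

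**Figure D2:**
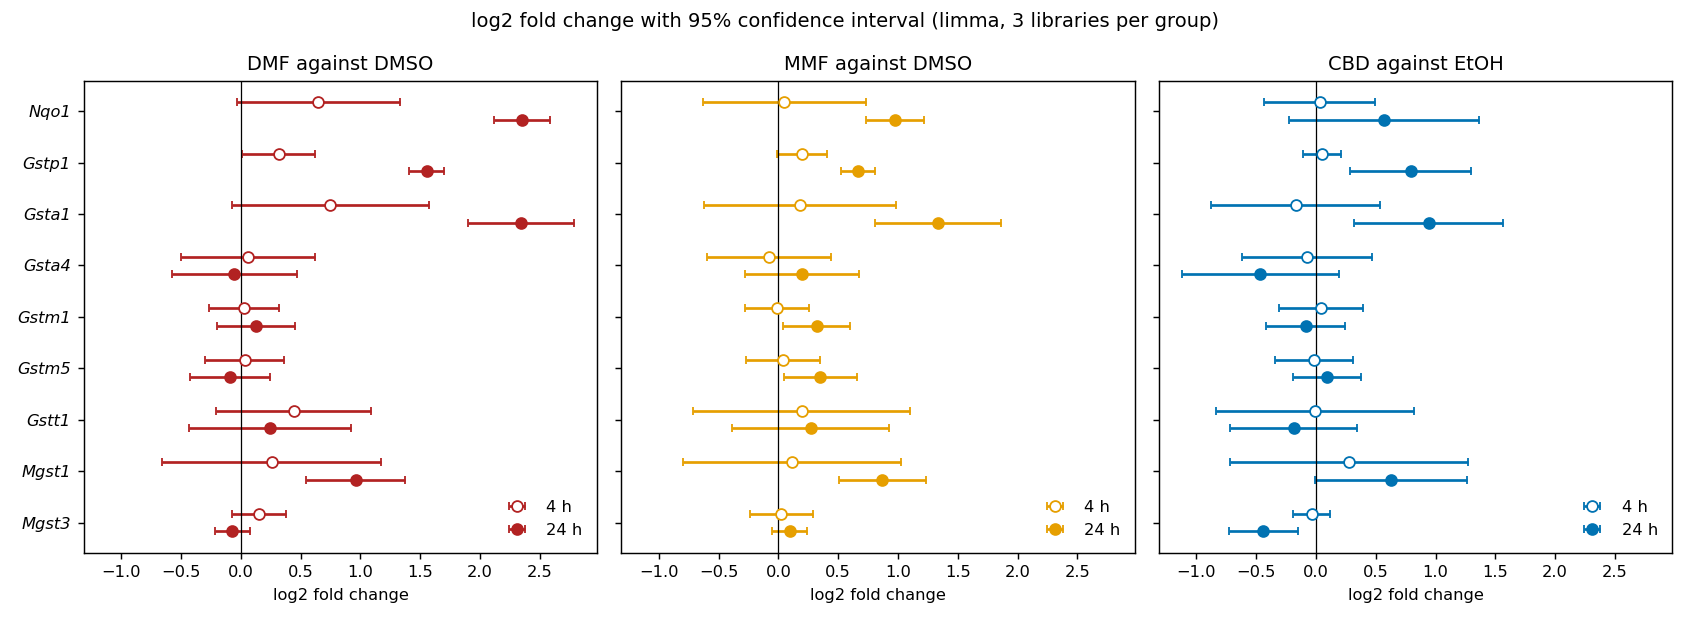
log2 fold change of drug over vehicle (x axis) for the 9 genes tested (y axis), at 4 h (open) and 24 h (filled), with 95% confidence intervals from limma that are not adjusted for the number of genes. With DMF at 24 h, Nqo1 (2.35), Gsta1 (2.34), Gstp1 (1.55) and Mgst1 (0.96) lie apart from 0 and from the other 5 genes, which lie between -0.09 and 0.24.

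Gstm1 and Gstm5, of the mu class, both lie on chromosome 2, and Gstt1, of the theta class, lies on chromosome 20. Gstm1 at 24 h had 1840.5, 1735 and 1234 normalized counts with DMF and 1423, 1604 and 1323 with DMSO. The groups overlapped, at a log2 fold change of 0.13 ± 0.14. With MMF it had 2167, 2028 and 1547 against 1497, 1685 and 1389, and the ratios within replicate numbers were 0.53, 0.27 and 0.16 on the log2 scale. This rise of 0.32 ± 0.12 was called with the replicate block only (limma, adjusted p = 0.952 without and 0.0145 with it).

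Gstm5, whose promoter held 2 matches, was 549, 651 and 443 with DMF and 585, 649 and 505 with DMSO at 24 h. The groups overlapped, at a log2 fold change of -0.09 ± 0.15. With MMF it was 845, 868 and 629.9 against 616, 682 and 530.04 with DMSO, higher within each replicate number, by 0.46, 0.35 and 0.25. The rise of 0.35 ± 0.14 was likewise called with the block only (limma, adjusted p = 0.952 without and 0.0102 with it). Gstt1 had 17 to 60 reads per library, and its log2 fold changes from vehicle lay between -0.19 with CBD at 24 h and 0.44 with DMF at 4 h, none of them called.

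Mgst1 (chromosome 4, 171029630 to 171044892) sits in the endoplasmic reticulum and the outer mitochondrial membrane, where it conjugates glutathione and reduces lipid hydroperoxides. At 24 h it had 135, 117 and 91.0 normalized counts with DMF and 53.4, 58.9 and 60.9 with DMSO. All DMF libraries were higher than all DMSO libraries, with a log2 fold change of 0.96 ± 0.18 (limma, adjusted p = 0.0244). The call rested on few reads and was lost without any 1 of 5 of the 6 libraries (adjusted p up to 0.122), and it was kept only where DMF replicate 3 was removed. With MMF it had 119, 125 and 93.2 against 56.2, 61.8 and 64.0, again without overlap. Here the log2 fold change was 0.87 ± 0.16 (limma, adjusted p = 0.84, and 0.0118 with the block).

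With CBD for 24 h, Mgst1 was 135, 126 and 125 against 125, 82.7 and 55.2 with EtOH. The CBD libraries lay close together just above the highest EtOH library, at a log2 fold change of 0.63 ± 0.28 (limma, adjusted p = 0.516), or 0.65 without CBD replicate 3. At 4 h, Mgst1 was 134, 86.1 and 51.0 with DMF and 114, 51.4 and 58.1 with DMSO, and the log2 fold changes with the 3 drugs were 0.26, 0.11 and 0.28 with standard errors of 0.40, 0.40 and 0.43.

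Mgst3 (chromosome 13, 79526541 to 79547411), a membrane-bound enzyme with glutathione peroxidase activity, stood at 1689.8, 1613 and 1745 with DMF and 1684, 1837 and 1795 with DMSO at 24 h. The groups overlapped, and the log2 fold change of Mgst3 was -0.07 ± 0.06 with DMF and 0.09 ± 0.06 with MMF. With CBD at 24 h it had 1578, 1649 and 1211, against 2113, 1871 and 1991 with EtOH. Every CBD library was below every EtOH library, but the log2 fold change of -0.44 ± 0.12 was not called (limma, adjusted p = 0.379, and 0.112 with the block).

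**Figure D3:**
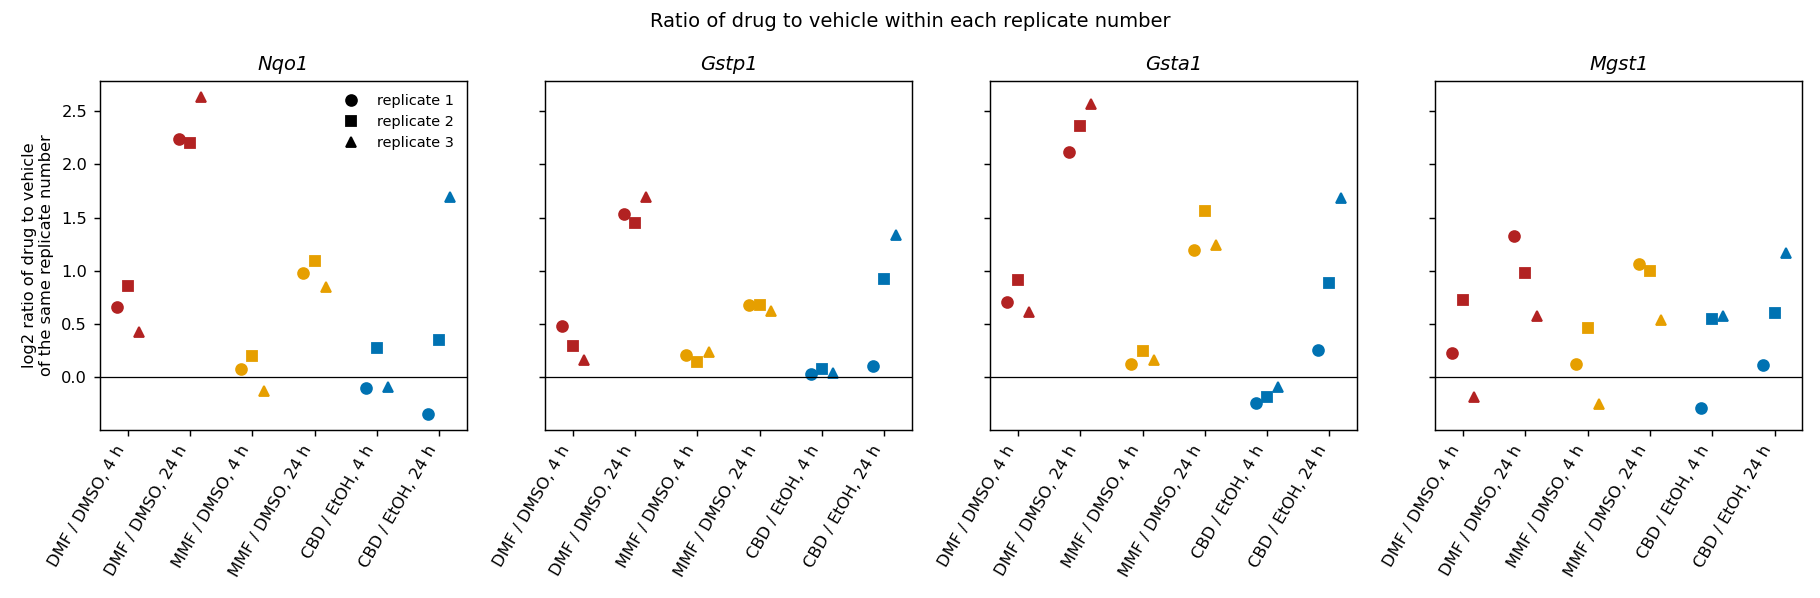
log2 ratio of drug to vehicle between libraries with equal replicate numbers (y axis) for Nqo1, Gstp1, Gsta1 and Mgst1, by drug and time (x axis). With MMF at 24 h the 3 ratios of Gstp1 lie between 0.63 and 0.68, whereas with CBD at 24 h those of Nqo1 run from -0.34 to 1.69.

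DMF and MMF, which differ by 1 methyl ester, were compared directly at the same dose and times. At 24 h, 3 of the 9 genes were higher with DMF (Nqo1, Gstp1 and Gsta1) and none was lower, where 3.56% of all genes were called. Nqo1 had 1609.6, 1445 and 1841 normalized counts with DMF and 676, 670.2 and 536 with MMF, a log2 fold change of 1.38 ± 0.12 (limma, adjusted p = 0.000627). Gstp1 had 3675, 3585 and 3892 against 2048, 2112 and 1866, a log2 fold change of 0.89 ± 0.07 (limma, adjusted p = 0.000511). None of these libraries overlapped between the drugs.

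Gsta1 had 1209.8, 927 and 965 with DMF and 644, 535 and 386 with MMF, also without overlap. Its log2 fold change was 1.01 ± 0.18 (limma, adjusted p = 0.021), and the call was lost without DMF replicate 1, DMF replicate 2 or MMF replicate 2, with a highest adjusted p of 0.0753. Mgst1 had 149.5, 129.7 and 100.5 with DMF against 125, 131 and 98.1 with MMF. Its difference was 0.09 with a 95% confidence interval of -0.34 to 0.52 (limma, adjusted p = 0.853). A difference of up to 0.52 on the log2 scale was thus within the error, and the values do not show that both drugs act alike on Mgst1.

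With the replicate block, 4 of 9 genes differed at 24 h (12.2% of all genes), the 3 above and Gstm5, which was lower with DMF. Gstm5 had 607, 719 and 489 with DMF and 891, 912 and 663 with MMF, and DMF was lower within each replicate number. The difference was -0.44 ± 0.16 on the log2 scale (limma, adjusted p = 0.205 without and 0.00432 with the block). At 4 h, 0 of 9 genes differed by limma without the block (1.61% of all genes). DESeq2 and edgeR also called 0 of 9, but their shares of all genes are not given here. An unadjusted limma p under 0.05 was found for 0 of 9, beside 2477 of 14200 genes. With the block 2 of 9 differed, a share near the 23.6% of all genes. These were Nqo1 by 0.59 (limma, adjusted p = 3.84e-05) and Gsta1 by 0.56 (adjusted p = 0.000373). For both, DMF was higher in all 3 replicate numbers, while for Gstp1 the ratios were 0.28, 0.14 and -0.08.

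**Figure D4:**
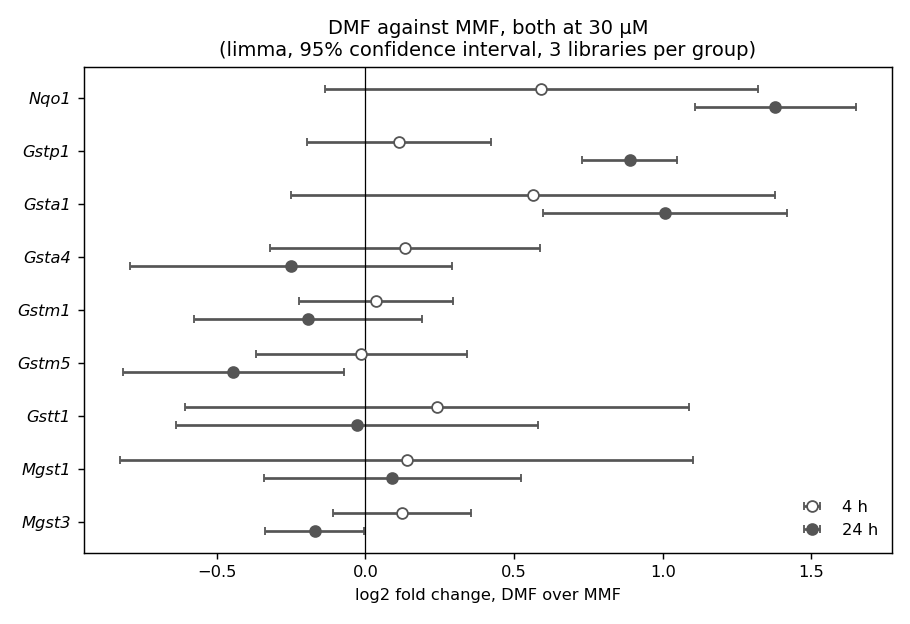
log2 fold change of DMF over MMF (x axis) for the 9 genes tested (y axis), at 4 h (open) and 24 h (filled), with 95% confidence intervals from limma. At 24 h Nqo1 (1.38), Gsta1 (1.01) and Gstp1 (0.89) lie above 0, Mgst1 lies at 0.09 and Gstm5 at -0.44.

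The effect of DMF grew between 4 h and 24 h for 2 of 9 genes, where the difference was called for 4.12% of all genes. It was 1.71 ± 0.35 larger on the log2 scale for Nqo1 (limma, adjusted p = 0.0187) and 1.24 ± 0.16 larger for Gstp1 (adjusted p = 0.00125), and both calls held without each of the 12 libraries in turn. For Gsta1 it was 1.59 ± 0.46 (limma, adjusted p = 0.0752). With the replicate block Gsta1 was called as well (adjusted p = 0.000144), beside 13.2% of all genes, and without the block it was called only where DMF 4 h replicate 1 was removed (adjusted p = 0.0304). For Mgst1 the difference was 0.70 ± 0.48 (limma, adjusted p = 0.473). With limma, the change of the MMF effect over time was called for 0 of 9 genes (0% of all genes), and so was that of the CBD effect (0%). In each of these, 3 of the 9 genes had an unadjusted p under 0.05 (Nqo1, Gstp1 and Gsta1 for MMF, and Gstp1, Gsta1 and Mgst3 for CBD), and edgeR called 0 of 9 as well. Among all genes, 131 of 14413 had such a p for MMF and 625 of 14503 for CBD.

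The effects of CBD and DMF, each against its own vehicle, were also compared, although the doses were 6 µM and 30 µM and the vehicles differed. At 24 h the difference was called for 0 of 9 genes by limma (0.391% of all genes), and with the block for 2 (2.58%). Without the block, edgeR also called 0 of 9, but its share of all genes is not given here. Of the 9, 4 had an unadjusted limma p under 0.05, beside 1387 of 14313 genes. CBD less DMF was -1.79 ± 0.41 on the log2 scale for Nqo1 (limma, adjusted p = 0.0919, and 0.0303 with the block) and -1.40 ± 0.38 for Gsta1 (adjusted p = 0.166, and 0.0191 with the block). Without CBD replicate 3, the library with the highest Nqo1 of its group, Nqo1 and Gstp1 were called without the block (adjusted p = 0.00059 and 0.0158). At 4 h, 0 of 9 were called by limma (0.999% of all genes), and edgeR also called 0 of 9, without a share of all genes. An unadjusted limma p under 0.05 was found for 0 of 9, beside 2184 of 14615 genes. With the block Nqo1 at -0.62 and Gsta1 at -0.92 were called (10.4% of all genes, limma, adjusted p = 0.0214 and 0.00157).

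The tables held 21 further genes of the transferase families, of which 11 or 12 passed the filter on low counts in each comparison, and 0 were called by limma without the block in any of them. With DMF at 24 h their median log2 fold change was 0.04, from -0.18 to 0.44, and with MMF it was 0.20, from 0.06 to 0.83. With the replicate block, the calls were 1 of 11 for DMF at 4 h (23.0% of all genes), 1 of 12 for MMF at 24 h (1.38%), and 1 of 11 and 2 of 12 for DMF against MMF at 4 h and 24 h (23.6% and 12.2%). These shares lie near or below those of all genes, except with MMF, where 1 gene makes the share. Gsto2, of the omega class, had 87.9, 86.8 and 108 normalized counts with DMF at 4 h against 67.7, 60.8 and 64.9 with DMSO, a log2 fold change of 0.53 (limma, adjusted p = 0.0381 with the block), and it was 0.50 higher with DMF than with MMF at 4 h (0.039). Gstt3, of the theta class, was higher with MMF at 24 h, by 0.47 on the log2 scale (0.0118). Gstm2 and Gstm7, of the mu class like Gstm5, were lower with DMF than with MMF at 24 h, with log2 fold changes of -0.80 and -0.37 (0.0328 and 0.024). Transferases of one class are similar in sequence, and how the counting treated reads shared between them is not given in the sources used here. Gstp3, on the same chromosome as Gstp1, had at most 1 read per library. Gsta3 and Gsta6, on the same chromosome as Gsta1, had up to 16 and 100. Gstm2, Gstm3, Gstm4 and Gstm7, on chromosome 2 like Gstm1 and Gstm5, had up to 211, 5, 1193 and 1120. The part of shared reads in these counts was not tested.

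**Figure D5:**
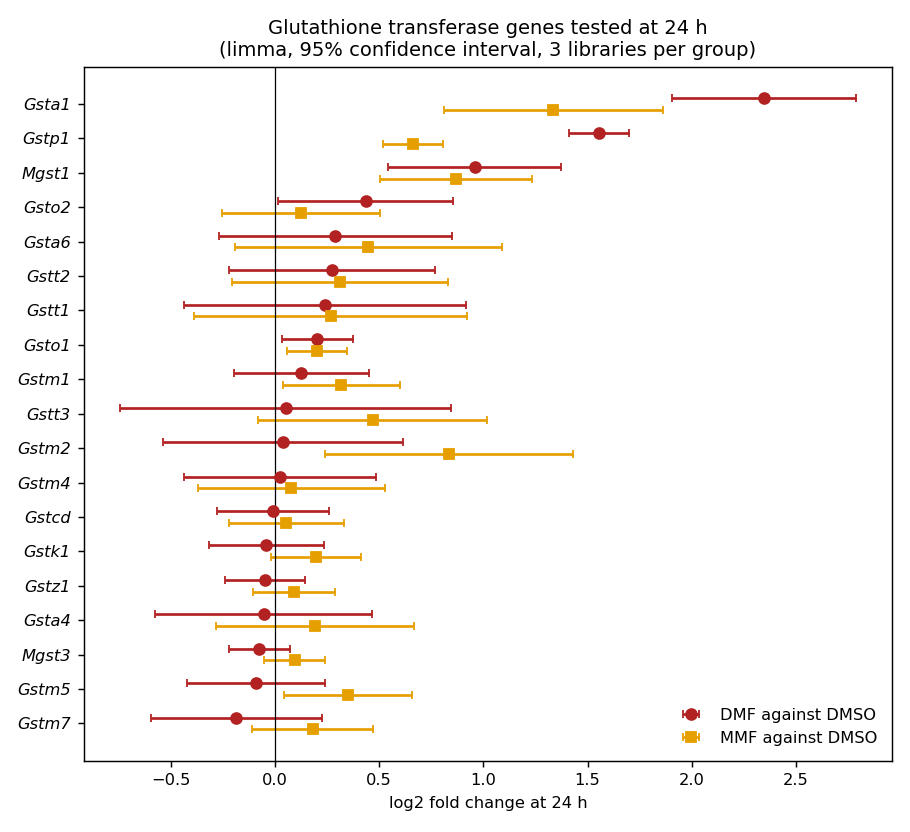
log2 fold change at 24 h (x axis) of the transferase genes tested with DMF (circles) and MMF (squares) against DMSO, with 95% confidence intervals from limma, ordered by the value with DMF. Gsta1, Gstp1 and Mgst1 stand above all others with DMF, and the next gene, Gsto2, lies at 0.44.

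Among 30 other detoxifying enzymes, 27 were listed in the tables and 19 to 21 were tested. With DMF at 24 h, 1 of 19 was called by limma, a share near the 3.97% of all genes, and this gene was Ephx1, the epoxide hydrolase of the endoplasmic reticulum, which acts on epoxides as some transferases do. Ephx1 had 956, 1001 and 646 normalized counts with DMF and 359.6, 282 and 349 with DMSO, a log2 fold change of 1.37 ± 0.17 (limma, adjusted p = 0.0033). It was higher with DMF than with MMF by 1.14 ± 0.15 (limma, adjusted p = 0.00582), and its log2 fold change from vehicle at 24 h was 0.23 ± 0.10 with MMF and -0.25 ± 0.13 with CBD, neither of them called. Its DMF effect was 1.43 larger at 24 h than at 4 h (adjusted p = 0.0266), a call that held when 5 of the 12 libraries were left out in turn and was lost without any DMSO library of 24 h, DMF replicate 1 or 2 of 24 h, or DMF replicate 2 or 3 of 4 h (adjusted p up to 0.0763). CBD less DMF at 24 h was -1.62 (adjusted p = 0.00881). With the block, 4 of 19 were higher with DMF at 24 h (Ephx1, Cyp1b1, Blvrb and Cbr3), where 12.9% of all genes were called, and 2 of 20 with MMF at 24 h (Cyp1b1 and Aldh2), where 1.38% were. At 4 h, 1 of 19 was lower with DMF, against 23.0% of all genes, namely Por, which passes electrons to cytochromes P450.

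Over the 30 libraries, the genes whose log2 CPM followed Nqo1 most closely among 14930 included Gstp1 (Pearson r = 0.909), Gsta1 (0.905), Ddit4l (0.902) and Txn1 (0.886). Those most like Gstp1 were Nqo1 (0.909), Gsta1 (0.882), Ddit4l (0.879), Sqstm1 (0.868) and Pir (0.867). The libraries share groups and replicate numbers, so these values describe likeness only. With the mean of each replicate number removed, Ddit4l ranked 6 and Txn1 10 for Nqo1, and Pir ranked 6 and Ddit4l 8 for Gstp1. The other genes named stayed within the first 5. Without the 3 DMF libraries of 24 h, the r of Nqo1 with Gstp1 was 0.794 and with Gsta1 0.846.

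The replicate numbers set a second pattern across the genes. Gsta4, Gstm1 and Gstm5 were lowest in replicate 3 in 10 of 10 groups, whereas Mgst3 was lowest there in 2 of 10. The summed markers of astrocytes, and those of endothelial cells and pericytes, were also lowest there in 10 of 10. For the oligodendrocyte lineage and microglia it was 7 of 10 each, for fibroblasts 5 and for neurons 0. Nqo1, Gsta1 and Mgst1 were highest in replicate 1 in 5 of 5 groups at 4 h. So were the sums of the microglial and fibroblast markers, while the other lists were highest there in 0 to 3 of 5. The part of the shares of these cell types in the values of the genes was not tested.

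Markers of cell types moved with the same drugs. With DMF at 24 h, 3.97% of all genes were called without the replicate block and 12.9% with it. Of 9 astrocyte markers, 1 was called without the block, Aldh1l1 (log2 fold change -0.65). With the block 5 were, of which Gfap was higher (0.76) and Aldh1l1, Aqp4 (-0.71), Sox9 (-0.29) and Slc1a3 (-0.20) were lower. The summed level of the 9 was 3103 to 5595 CPM with DMF and 2895 to 4886 CPM with DMSO. Of 7 oligodendrocyte lineage markers tested, 3 were lower (Pdgfra, Cspg4 and Sox10, with log2 fold changes of -1.56, -1.13 and -1.36), and the summed level of that list was 587 to 731 CPM against 729 to 890 CPM. Neuronal markers were called 0 of 8 times without the block and 2 of 8 with it, Tubb3 and Syt1, both lower, and their sum was 3253 to 3932 CPM against 3936 to 4281 CPM, without overlap. The sum of the microglial markers was 1.86 to 4.00 CPM against 1.35 to 1.55 CPM. The part of these markers in the rise of Nqo1, Gstp1, Gsta1 and Mgst1 was not tested.

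With DMF at 4 h, the neuronal sum was 3251 to 3609 CPM against 3676 to 4314 CPM with DMSO, also without overlap. Without the block, where 3.41% of all genes were called, Tubb3 (-0.64) and the pericyte marker Pdgfrb (-1.26) were lower. With the block, where 23.0% were called, Gad1, Gfap, Sox9, Pdgfra, Sox10 and Dcn were also lower and Rbfox3 higher. With MMF at 24 h, the fibroblast sum was 43.0 to 64.9 CPM against 22.5 to 38.4 CPM with DMSO, without overlap. None of the markers was called with MMF at 24 h without the block (0.00707% of all genes). With the block (1.38% of all genes) Col1a1 was higher (1.36) and Pdgfra lower (-0.23). Between DMF and MMF at 24 h, Cspg4, Pdgfra and Sox10 were lower with DMF, where 3.56% of all genes were called. With the block, where 12.2% were called, Gfap was also higher and Aldh1l1, Aqp4, Slc1a3, Aldoc, Tubb3, Slc17a7, Pdgfrb and Col1a1 lower. The part of these markers in the blocked calls of Nqo1, Gstp1, Gsta1, Gstm1, Gstm5 and Mgst1 was not tested. With CBD at 24 h, 2 of 8 neuronal markers were lower, Gad1 and Gad2, where 0.114% of all genes were called. The neuronal sum was 3670 to 3927 CPM with CBD against 3944 to 4472 CPM with EtOH, again without overlap. In CBD replicate 3 at 24 h the astrocyte sum was 2264 CPM, the lowest of the 24 h libraries, while Nqo1 and Gstp1 were the highest of their group. The part of these values in the CBD results was not tested.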

How the data were processed

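Per the labels and the methods of the study, the authors ran Cutadapt 4.4 and Trimmomatic 0.39, mapped to mRatBN7.2 with HISAT2 2.2.1, counted reads on Ensembl genes with HTSeq 2.0.3 and compared pairs of groups with DESeq2 1.40.2. The strand setting is not given in the sources used here. The signal values that the authors deposited are gene counts scaled by a size factor for each of the 6 libraries in a table. The fold changes and p-values of the authors in these tables were not used. Of 19 tables, 8 were used, and the other 11 hold comparisons not made here. The deposited values came out as whole reads for 100.0% of entries (tolerance 0.01 reads). Genes absent from every table of a library were counted as 0 for it. Counts of reads without molecular identifiers carry counting error and amplification error.

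The log2 values (pseudocount 1) of 3 libraries per group were tested in R 4.3.3 with limma 3.58.1 (empirical Bayes with a mean trend, two-sided). Genes were kept by filterByExpr of edgeR 4.0.16, and the Benjamini-Hochberg adjustment covered every gene kept, with a threshold of 0.05. Fold changes are on that log2 scale, which understates those of low genes. Differences between effects used 12 libraries, with the recovered reads scaled by median-ratio size factors. The methods of the study name no block, so the first test had none. Replicate numbers come from the labels. Deviations of libraries with the same number from their group means correlated at 0.139 to 0.620 in the 8 comparisons, above the minimum of 0.1 set for pairing, and those of different numbers at 0.107 or less.

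Named were the 10 genes, up to 5 called genes per comparison from each of 2 lists (other transferases, other detoxifying enzymes), and the 5 genes most like Nqo1 and Gstp1 in log2 CPM (TMM scaling, prior count 2), of which 1 is not reported here. Genes and lists were chosen with earlier results of these data known. Alternatives were TMM scaling, no filter, the replicate block, the spread of all 30 libraries, a pseudocount of 0.1, DESeq2 1.42.0, edgeR, and each library left out. The test was tried on simulated data that held no deviations shared by replicate number, so the replicate block was not tried there. Tables were made with Python 3.11.15, pandas 2.3.3 and NumPy 2.4.6, and plots with matplotlib 3.10.9. Levels of different genes were not compared, since gene lengths were not used here.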

Additional observations from a re-analysis of the deposited data

Results flagged for a closer look

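The effect of DMF differed between the times for 2 of the genes, by a test of the difference itself over 12 libraries. For Nqo1 the effect at 24 h exceeded that at 4 h by 1.71 in log2 units (limma, adjusted p = 0.0187). For Gstp1 it did so by 1.24 (limma, adjusted p = 0.00125). Groups of 3 libraries were too small for a test of single outlying libraries.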

How the results depend on the processing

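With the replicate block, the number of the 9 tested genes that were called went from 0 to 3 for DMF at 4 h, from 1 to 6 for MMF at 24 h, from 0 to 2 for DMF against MMF at 4 h, and from 0 to 2 for CBD less DMF at 4 h and at 24 h. For DMF at 4 h and for DMF against MMF at 4 h, 23.0% and 23.6% of all genes were called with the block. The block also added Gstm5 in DMF against MMF at 24 h and Gsta1 in DMF at 24 h less 4 h, and changed no other call of these genes. With no filter or with the spread of all 30 libraries, Nqo2 was tested as well. For MMF at 24 h the count was 2 with no filter, 0 with the spread of all 30 libraries, 3 with DESeq2 and 0 to 3 with 1 library left out. For CBD at 24 h it was 2 with the spread of all 30 libraries, 1 with DESeq2 and 0 to 1 with 1 library left out, and for CBD less DMF at 24 h it was 0 to 2 with 1 library left out. Apart from the block, the share of all genes called under these alternatives is not given here, so their counts stand without a background. Leaving out 1 library also turned the sign of small log2 differences that were not called. With DMF at 4 h, Mgst1 ran from -0.077 to 0.61. With MMF at 4 h, Nqo1 ran from -0.24 to 0.33, Gsta1 from -0.15 to 0.53 and Mgst1 from -0.24 to 0.46. With CBD at 4 h, Nqo1 ran from -0.11 to 0.23, Gsta1 from -0.44 to 0.13 and Mgst1 from -0.12 to 0.74. For DMF against MMF, Gstp1 at 4 h ran from -0.026 to 0.25. For the same pair of drugs, Mgst1 lay between -0.20 and 0.50 at 4 h, and between -0.038 and 0.25 at 24 h. Mgst1 ran from -0.11 to 0.75 for CBD at 24 h less 4 h, and from -0.38 to 0.48 for CBD less DMF at 4 h, where edgeR gave -0.12. The spread of all 30 libraries also ended the calls of Mgst1 for DMF at 24 h (adjusted p = 0.211) and of Gsta1 for DMF against MMF at 24 h (adjusted p = 0.129), by limma. The cause was not tested. Over all tested genes, comparisons and alternatives, 122 of 138 values of called genes stayed called, 16 did not pass and 0 changed sign. Of 1563 values of genes not called, 106 changed sign and 28 passed. DESeq2 was not run for the differences between effects. Depth limits Nqo2, Gstt1 and Mgst1 most, with at most 14, 60 and 151 reads per library.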
